A study of Mus musculus with 12 samples.

Results

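The genes described here encode 10 integrin subunits through which macrophages adhere, found by name among the 24279 rows of the deposited expression table. They are the alpha subunits Itga4, Itga5, Itga6, Itgal, Itgam, Itgav and Itgax and the beta subunits Itgb1, Itgb2 and Itgb5. All 10 were in the table and all 10 passed the filter on low values, a level of at least 1 TPM in at least 3 libraries. TPM is an estimate of transcript abundance corrected for transcript length and scaled to the same total in every library, so levels of different genes can be set side by side. RNA came from mouse peritoneal macrophages, cells of the abdominal cavity, kept in culture and sequenced in bulk as stranded mRNA libraries. The 4 groups of 3 libraries were wild-type (WT) cells in PBS, WT cells with oxidized low-density lipoprotein (oxLDL) at 20 μg/mL for 8 h, Pim1-/- cells in PBS, and Pim1-/- cells with the same oxLDL treatment. Pim1 encodes a serine/threonine kinase, and Pim1-/- stands for its loss. Age, sex, strain and the design of the Pim1 allele are not given in the sources used here, nor whether a group's libraries stem from different mice, so the p-values measure the spread between these libraries, which may be technical.

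Integrins are receptors made of 1 alpha and 1 beta chain that bind matrix proteins or proteins on other cells, and they signal in both directions across the membrane. On leukocytes the beta chain encoded by Itgb2 pairs with the chains encoded by Itgal, Itgam and Itgax, which bind ICAM proteins, complement fragments and fibrinogen. The Itgb1 chain pairs with those of Itga4 (a receptor for VCAM-1 and fibronectin), Itga5 (fibronectin) and Itga6 (laminin), and the Itgav chain pairs with Itgb1, Itgb5 and other beta chains to bind vitronectin and bridging proteins on dying cells. Resting integrins are switched on from inside the cell, where Rap1 GTPases, talin and kindlin act on the beta chain. OxLDL is a modified lipoprotein taken up by scavenger receptors and is used to load macrophages with lipid.

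Several properties of the libraries bear on the integrin values. Pim1 stood at 56.0 to 365 TPM in the 6 WT libraries and at 10.2 to 47.8 TPM in the 6 Pim1-/- libraries. Macrophage markers were abundant in every group, their 6 genes summing to 11719 to 24087 TPM over the libraries. Most of each sum was Lyz2, at 8983 to 21127 TPM. WT PBS 3 also held T and NK cell transcripts, 477 TPM summed over 7 markers against at most 15.2 TPM in any other library. Its Pearson correlations with WT PBS 1 and WT PBS 2 were 0.835 and 0.816, the lowest inside any group. WT PBS 1 and WT PBS 2 correlated at 0.964. The nearest library to WT oxLDL 2 was Pim1-/- oxLDL 1 (Pearson r = 0.982 over 12594 genes), while its correlations inside its own group were 0.891 and 0.910. These 2 libraries held the lowest Pim1 level of the WT libraries (56.0 TPM) and the highest of the Pim1-/- libraries (47.8 TPM). Pim1-/- PBS 2 was likewise nearest to a WT library, WT PBS 1 (0.920, against at most 0.900 in its own group). Whether libraries were exchanged was not tested. The ribosomal and microRNA rows Rn45s and Mir6236 took 11.7% to 32.7% of all TPM, unevenly by library, with 11.7% to 19.5% in WT PBS and 14.9% to 29.4% in Pim1-/- PBS. Over all tested genes the median log2 change lay below 0 with oxLDL (-0.70 in WT and -0.50 in Pim1-/- cells) and with the knockout (-0.41 in PBS and -0.16 in oxLDL). Many results below are therefore also given after median scaling, in which every library was divided by its median ratio to the mean library. Sequencing depth is unknown, and in bulk RNA fewer cells of a type and less RNA per cell cannot be told apart.

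In untreated WT macrophages Itgb2 was the most abundant of the 10 integrin transcripts by a wide margin. It stood at 2866, 3130 and 2900 TPM, which was 63.9% ± 5.08 (SD, n = 3) of the summed TPM of the 10 genes. Its partners Itgax at 475 ± 84.4 TPM and Itgam at 386 ± 95.3 TPM came next, followed by Itgb1 at 341 ± 103 TPM. The ranges of these 3 genes overlapped, and Itgb2 lay above all of them in each library. Itga5 followed at 176 ± 40.7 TPM and Itgb5 at 116 ± 72.0 TPM, with overlapping ranges. Itgal at 65.0 ± 16.8 TPM, Itgav at 60.4 ± 15.3 TPM and Itga6 at 56.2 ± 23.5 TPM could not be ordered, since the spread of each exceeded the gaps between them. Itga4 was the least abundant at 29.5 ± 6.20 TPM, below Itga6 in every WT PBS library.

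The order of the levels differed by group, while Itgb2 stayed first in all 4. In WT oxLDL the second place was held by Itga5 at 511 ± 213 TPM (SD, n = 3), with a range that overlapped that of Itgam (296 ± 189 TPM), and the last by Itga6 at 4.09 ± 2.05 TPM. In Pim1-/- PBS cells Itgax (249 ± 117 TPM), Itgb1 (237 ± 142 TPM), Itgam (233 ± 87.8 TPM) and Itga5 (164 ± 56.8 TPM) overlapped, and Itga4 was last at 8.17 ± 4.07 TPM, overlapping Itga6 at 11.5 ± 5.53 TPM. In Pim1-/- oxLDL cells Itgb2 (826 ± 37.4 TPM), Itga5 (329 ± 67.4 TPM) and Itgb1 (171 ± 52.3 TPM) were separated from each other, and Itga6 was last at 0.880 ± 0.586 TPM. The summed TPM of the 10 genes went from 4671 ± 546 to 2806 ± 1333 with oxLDL in WT cells, and from 2237 ± 1037 to 1624 ± 140 in Pim1-/- cells.

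**Figure D1:**
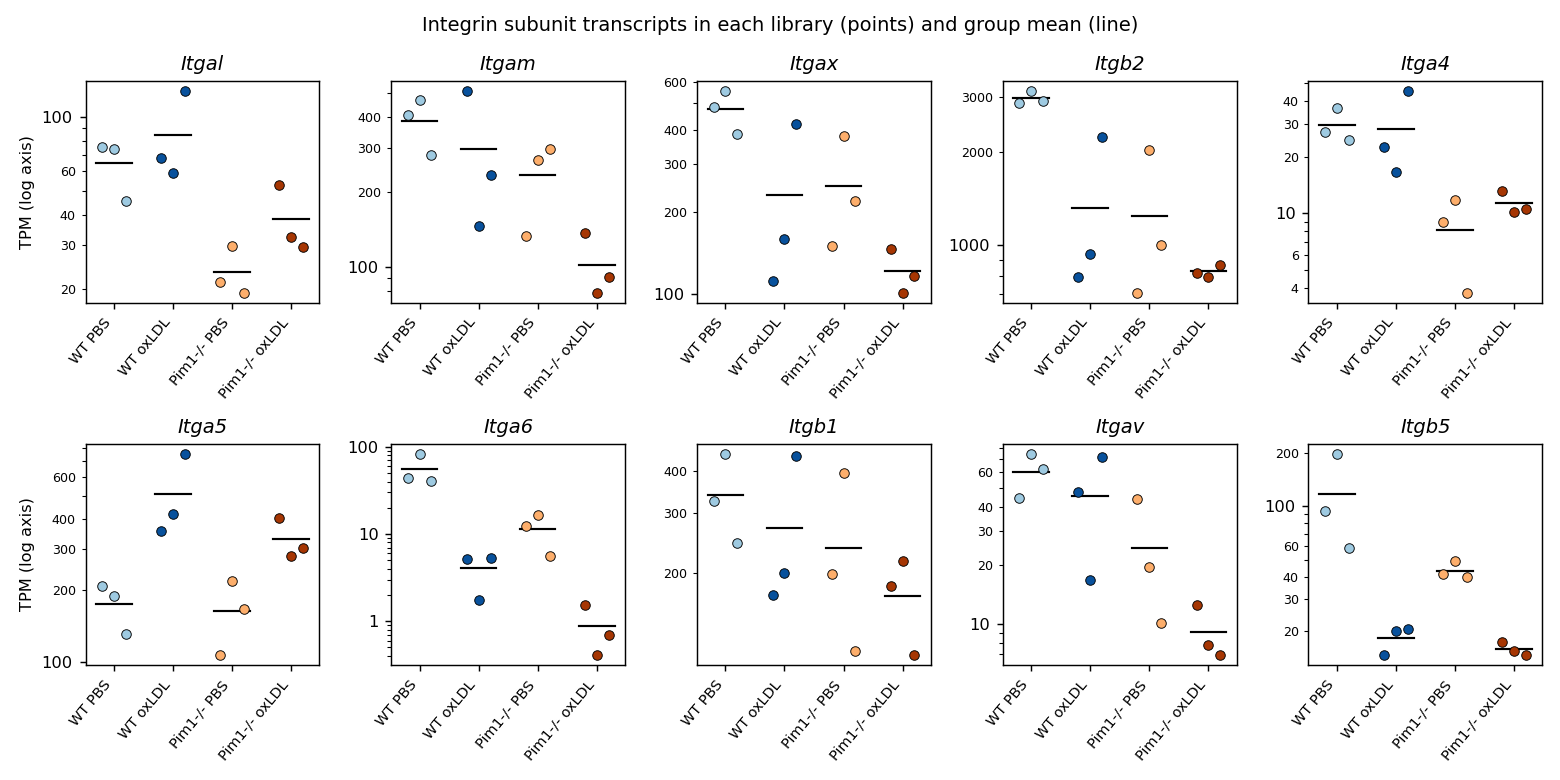
Level of each of the 10 integrin transcripts in TPM (log axis, scaled per panel) in the 3 libraries of each group (points) with the group mean (line). Itga6 and Itgb5 lie lower and Itga5 higher in every oxLDL library than in every PBS library of the same genotype, and Itga4 lies lower in every Pim1-/- library than in every WT library.

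The genes lie on 6 chromosomes (GRCm38/mm10, GENCODE M21), with Itga4, Itga6 and Itgav on chromosome 2 and Itgal, Itgam and Itgax on chromosome 7. Itgam (128062640 to 128118491, + strand) and Itgax (128129547 to 128150657, + strand) are neighbours, and Itgal (127296260 to 127335138, + strand) lies on the same chromosome. Itgam is overlapped on its own strand over 55809 bases by Gm49368, an annotated gene that the table does not list, and reads from the overlap cannot be told apart between these annotations. Itga4 (chromosome 2, 79255426 to 79333123, + strand) overlaps Cerkl on the opposite strand over 2581 bases, and Cerkl stood at 0 to 3.28 TPM.

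RefSeq promoter windows (GRCm38.p6) matched 7 of the 10 genes, all but Itga6, Itgal and Itgb2. The 250 bases before the start are printed for Itga5, which rose with oxLDL in WT cells, for Itgb5, which fell, and for Itgam, whose deposited level passed no test. Capitals mark matches, on either strand, to the SP1 letters GGGCGG and to the PU.1 core GAGGAA, PU.1 being a transcription factor of myeloid cells.
Itga5 (chr15:103366792-103367041, - strand): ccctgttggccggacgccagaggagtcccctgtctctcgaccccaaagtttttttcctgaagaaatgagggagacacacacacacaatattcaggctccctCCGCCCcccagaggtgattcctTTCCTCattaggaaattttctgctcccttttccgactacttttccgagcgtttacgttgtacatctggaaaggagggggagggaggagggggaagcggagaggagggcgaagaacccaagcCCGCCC
Itgb5 (chr16:33829415-33829664, + strand): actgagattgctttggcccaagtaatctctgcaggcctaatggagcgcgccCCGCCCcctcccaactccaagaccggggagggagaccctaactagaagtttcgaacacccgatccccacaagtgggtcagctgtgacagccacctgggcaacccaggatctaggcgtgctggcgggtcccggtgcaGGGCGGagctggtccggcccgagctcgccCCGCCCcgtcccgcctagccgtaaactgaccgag
Itgam (chr7:128062390-128062639, + strand): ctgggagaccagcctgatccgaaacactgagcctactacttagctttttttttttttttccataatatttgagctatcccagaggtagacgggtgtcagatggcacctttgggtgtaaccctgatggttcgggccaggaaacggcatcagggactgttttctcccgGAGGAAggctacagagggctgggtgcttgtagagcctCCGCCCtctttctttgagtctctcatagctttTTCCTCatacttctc
The SP1 letters were in 5 of the 7 windows and in 32.7% of the 32851 windows of this length, and the PU.1 core in 4 of the 7 and in 23.3% of all. Itga5 held 2 SP1 matches and 1 PU.1 core, Itgb5 held 3 SP1 matches and no PU.1 core, and Itgam held 1 SP1 match and 2 PU.1 cores. None of the 7 windows held the NF-kB motif (4.65% of all windows), the interferon-stimulated response element (2.98%) or the E-box CACGTG (6.02%). The AP-1 letters TGANTCA were in 1, that of Itgax (6.75% of all). A match describes these letters and is not a binding site.

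How macrophages alter adhesion receptors under oxLDL was examined first in WT cells. Of the 10 genes Itga5 rose, Itga6, Itgb5 and Itgb2 fell, and 6 did not pass (limma, Benjamini-Hochberg adjusted p under 0.05 over 12594 genes). Over all tested genes 5.83% were called higher and 27.0% lower, 32.8% in all. The median change of the 10 genes was -0.57 and that of all tested genes -0.70. After median scaling Itga5 and Itgal rose, Itga6 and Itgb5 fell, and Itgb2 no longer passed, where 12.2% of all genes were higher and 8.18% lower. The 3 oxLDL libraries lay wholly above the PBS libraries for Itga5 (7.95% of all genes did so) and wholly below them for Itga6, Itgb2 and Itgb5 (34.7%). Without WT oxLDL 2 and Pim1-/- oxLDL 1 the calls of Itga5 (1.58, limma adjusted p = 0.045), Itga6 (-3.11, limma adjusted p = 0.00263) and Itgb5 (-2.50, limma adjusted p = 0.00711) held, and that of Itgb2 did not (-1.16, limma adjusted p = 0.181).

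Markers of macrophage subsets moved with the treatment as well. The 6 markers of small peritoneal or monocyte-derived macrophages summed to 14.5 to 48.9 TPM in WT PBS and 359 to 603 TPM in WT oxLDL, and to 5.58 to 15.0 TPM and 367 to 528 TPM in Pim1-/- cells. The oxLDL sums came almost wholly from Ms4a4c and Ly6c2. The PBS sums in WT cells came mostly from F13a1 and Irf4, with Irf4 at 42.6 of the 48.9 TPM in WT PBS 3. The other markers of the list did not move with these: Ccr2 went from 1.38, 5.10 and 3.92 TPM to 0, 0.0953 and 0.466 TPM in WT cells, F13a1 from 10.9, 14.6 and 2.33 TPM to 0.768, 1.95 and 2.17 TPM, and Cd226 stood at or below 0.137 TPM throughout. The 6 markers of large peritoneal macrophages went from 41.5 to 74.3 TPM in WT PBS to 11.6 to 35.5 TPM in WT oxLDL, with Gata6, their defining transcription factor, at 11.0, 21.9 and 11.4 TPM and at 16.3, 1.12 and 1.38 TPM. Of the macrophage markers in WT cells, Csf1r went from 726, 777 and 494 TPM to 123, 138 and 411 TPM with oxLDL. Fcgr1 went from 50.5, 56.2 and 32.2 TPM to 263, 129 and 252 TPM, while Adgre1, Cd68, Mertk and Lyz2 overlapped. The part of these shifts in the integrin values was not tested.

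Itga5, the alpha chain of the main fibronectin receptor, was 209, 188 and 130 TPM in untreated WT cells and 357, 422 and 754 TPM after oxLDL. The groups did not overlap, and WT oxLDL 3 was the highest. The log2 change was 1.48 (SE 0.414, limma adjusted p = 0.0152) and stayed past the threshold in each fit that left out a library. Without Pim1 Itga5 went from 106, 220 and 167 TPM to 405, 279 and 302 TPM, again without overlap. That log2 change of 1.04 (SE 0.414) did not pass as deposited (limma adjusted p = 0.12) and passed after median scaling at 1.61 (SE 0.310, limma adjusted p = 0.00397).

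Itga6, the alpha chain of laminin receptors, had the largest log2 change of the 10 genes. It stood at 44.4, 83.2 and 41.0 TPM in WT PBS and at 5.24, 1.73 and 5.31 TPM in WT oxLDL. Every oxLDL library lay below every PBS library by a wide gap. The log2 change was -3.51 (SE 0.497, limma adjusted p = 0.000199), and -2.69 after median scaling (limma adjusted p = 0.00128). In knockout cells the level went from 12.4, 16.5 and 5.57 TPM to 1.53, 0.407 and 0.697 TPM, a log2 change of -2.66 (SE 0.497, limma adjusted p = 0.0028). Both knockout groups were low, and on the log2(TPM + 1) scale changes near 1 TPM are understated. The fall passed in every fit that left out a library, in both genotypes.

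Itgb5, a beta partner of the Itgav chain in vitronectin receptors, fell in both genotypes. In WT cells it was 94.1, 197 and 58.1 TPM without and 14.6, 19.8 and 20.4 TPM with oxLDL. WT PBS 2 was the highest, and the groups stood apart. The log2 change was -2.44 (SE 0.418, limma adjusted p = 0.000871), and -1.53 after median scaling (limma adjusted p = 0.00635). In Pim1-/- cells Itgb5 went from 41.6, 48.9 and 39.8 TPM to 17.2, 15.4 and 14.5 TPM, so the oxLDL libraries of both genotypes lay within a narrow range. The change of -1.41 (SE 0.418, limma adjusted p = 0.0413) did not pass after median scaling (-0.87, limma adjusted p = 0.128) and missed the threshold in 8 of 12 fits when a library was dropped.

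Itgb2, the common beta chain of the leukocyte integrins, went from 2866, 3130 and 2900 TPM to 790, 937 and 2222 TPM in WT cells. All 3 oxLDL libraries were lower, with WT oxLDL 3 nearest to the PBS level. The log2 change was -1.33 (SE 0.486, limma adjusted p = 0.0493), at the edge of the threshold. It was -0.39 after median scaling (limma adjusted p = 0.529) and was lost in 9 of 12 fits when a library was dropped, among them those without any one WT PBS library and without WT oxLDL 1 or 2. In Pim1-/- cells the level went from 706, 2018 and 1006 TPM to 818, 794 and 867 TPM, groups that overlapped (-0.45, SE 0.486, limma adjusted p = 0.57).

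The alpha partners of Itgb2 moved unlike one another. Itgal, which with Itgb2 forms the lymphocyte function-associated antigen, stood at 75.2, 74.1 and 45.6 TPM in WT PBS and at 67.7, 59.2 and 127 TPM in WT oxLDL. These groups overlapped, and the deposited change of 0.33 (SE 0.407, limma adjusted p = 0.557) did not pass. After median scaling the change was 1.26 (SE 0.300, limma adjusted p = 0.0111) in WT and 1.23 (SE 0.300, limma adjusted p = 0.0177) in Pim1-/- cells, whose deposited levels went from 21.3, 29.8 and 19.3 TPM to 52.9, 32.5 and 29.6 TPM. Itgam, the alpha chain of complement receptor 3, was 408, 468 and 282 TPM in WT PBS and 508, 146 and 235 TPM in WT oxLDL. WT oxLDL 1 held the highest level of all libraries, the 2 others lay below the PBS group, and the change of -0.54 (SE 0.487, limma adjusted p = 0.412) turned to 0.39 after median scaling. Itgax, also known as CD11c, was 485, 553 and 386 TPM in WT PBS and 112, 159 and 420 TPM in WT oxLDL. Here WT oxLDL 3 lay inside the PBS range, and the change of -1.26 (SE 0.490, limma adjusted p = 0.0612) missed the threshold but passed without that library (-1.81, limma adjusted p = 0.00785). After median scaling it was -0.33 (limma adjusted p = 0.58).

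Itga4, Itgb1 and Itgav were not called with oxLDL in either genotype as deposited or after median scaling. Once a trend on length and GC content was taken out of each library, which was added after the data had been seen, Itga4 was called higher in WT (1.19, limma adjusted p = 0.00292) and in Pim1-/- cells (1.37, limma adjusted p = 0.00151). Itga4 stood at 27.2, 36.6 and 24.8 TPM in WT PBS and at 22.6, 16.7 and 45.1 TPM in WT oxLDL, a change of -0.17 that turned to 0.74 after median scaling. Itgb1, the beta chain of most matrix-binding integrins, was 327, 450 and 246 TPM in WT PBS and 172, 200 and 444 TPM in WT oxLDL, a change of -0.41 that turned to 0.52. Itgav went from 44.2, 74.6 and 62.4 TPM to 47.3, 16.8 and 71.5 TPM, a change of -0.60 that turned to 0.32. In all 3 genes the WT oxLDL libraries overlapped the PBS range, with WT oxLDL 2 lowest for Itga4 and Itgav. In knockout cells their changes were 0.53, -0.34 and -1.15, with that of Itgb1 turning to 0.23 after median scaling.

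In Pim1-/- cells as a whole 2 of the 10 genes fell with oxLDL, Itga6 and Itgb5, and none rose, against 7.80% lower and 4.45% higher over all genes. The median change was -0.70, and that of all tested genes -0.50. After median scaling Itga5 and Itgal rose and Itga6 fell (6.91% and 4.39% over all genes). The libraries were apart for Itga5 (higher, 8.54% of all genes) and for Itga6, Itgax and Itgb5 (lower, 29.6%). Itgax went from 150, 377 and 219 TPM to 145, 101 and 116 TPM, a change of -0.95 (SE 0.490, limma adjusted p = 0.223). Itgam went from 133, 269 and 297 TPM to 136, 78.7 and 90.6 TPM, groups that overlapped at Pim1-/- oxLDL 1 (-1.14, SE 0.487, limma adjusted p = 0.145).

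**Figure D2:**
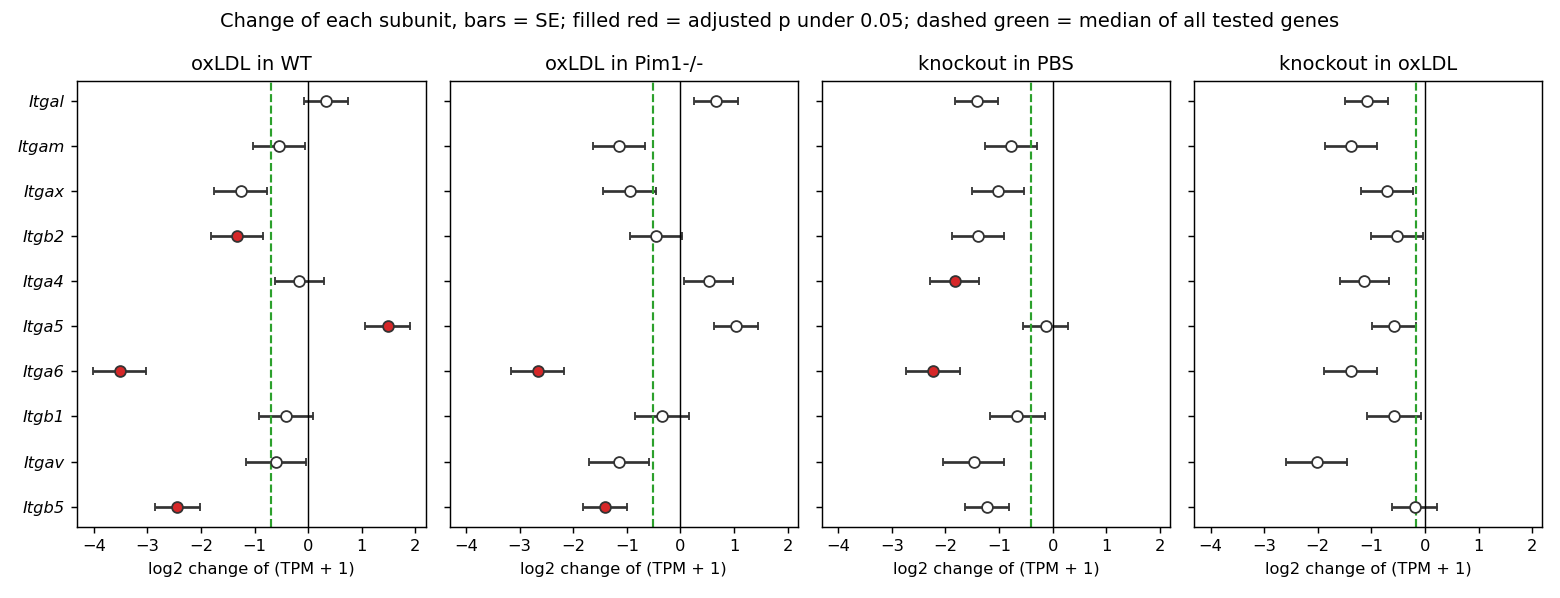
Log2 change of each integrin transcript with its standard error from limma for oxLDL in each genotype and for the knockout in each treatment, as deposited. Filled points mark a limma adjusted p under 0.05, and the dashed line marks the median of all tested genes. Median scaling, which is not drawn, moves Itgb2 in WT cells from -1.33 to -0.39 and Itgal from 0.33 to 1.26. Itga6 stays at or below -2.44 in both oxLDL comparisons on either scale.

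A ratio of 2 genes within the same library hardly depends on how that library is scaled, where both lie well above 1 TPM. The partner chains were therefore also compared as log2 ratios of (TPM + 1). For Itga6 in Pim1-/- oxLDL cells, at 0.407 to 1.53 TPM, the added 1 weighs on the ratio and understates its fall. The test was exact and two-sided, permuting libraries within genotype or within treatment over 400 arrangements, with p-values adjusted over 16 tests, and 0.005 is the smallest p it can give. With oxLDL Itgal rose relative to Itgb2 by 1.38 (exact p = 0.005, adjusted 0.04). Itga5 rose relative to Itgb1 by 1.64 (exact p = 0.01, adjusted 0.04), and Itga6 changed relative to Itgb1 by -2.71 (exact p = 0.005, adjusted 0.04). The Itga5 to Itgb1 ratio overlapped between treatments in Pim1-/- cells, with Pim1-/- PBS 3 at 0.51 and Pim1-/- oxLDL 2 at 0.36. The Itgal to Itgb2 ratio went from -5.23, -5.38 and -5.96 to -3.53, -3.96 and -4.12 in WT cells, and from -4.99, -6.04 and -5.63 to -3.93, -4.57 and -4.83 in Pim1-/- cells, without overlap in either. The other 5 ratios did not pass, Itga4 to Itgb1 at 0.56 being nearest (exact p = 0.02, adjusted 0.064). Itgam to Itgb2 differed by 0.05 (exact p = 0.95) and Itgax to Itgb2 by -0.22 (exact p = 0.185). The value for Itgam averages opposite moves of the group means, from -2.97 to -2.18 in WT and from -2.35 to -3.05 in Pim1-/- cells. The libraries overlapped in both genotypes, and WT oxLDL 1 stood at -0.64 against -2.68 and -3.24 in WT oxLDL 2 and 3. With fewer arrangements left, 0 to 4 ratios passed when a library was left out, and none without Pim1-/- PBS 2, Pim1-/- oxLDL 1 or Pim1-/- oxLDL 2, or without WT oxLDL 2 and Pim1-/- oxLDL 1 together.

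The make-up of the alpha chains followed from these levels. Among the 4 alpha partners of Itgb1 described here, Itga5 was 54.7% ± 8.40 of the summed TPM in WT PBS and 87.0% ± 4.90 in WT oxLDL, and 77.9% ± 14.2 and 94.0% ± 0.313 in Pim1-/- cells (SD, n = 3). The share of Itga6 was 17.1% ± 4.18 and 0.733% ± 0.431 in WT cells, and 5.46% ± 2.20 and 0.236% ± 0.110 in Pim1-/- cells. Among the alpha partners of Itgb2, Itgal held 6.97% ± 0.703 in WT PBS and 14.1% ± 3.71 in WT oxLDL, and 5.00% ± 1.77 and 14.5% ± 1.76 in Pim1-/- cells. Itgam and Itgax shared most of the rest in every group, at mean shares of 38.7% to 48.0% and of 37.9% to 51.6%, and Itgad stayed at or below 0.0242% in every library. These shares are descriptions of transcript levels, since protein at the surface was not measured.

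**Figure D3:**
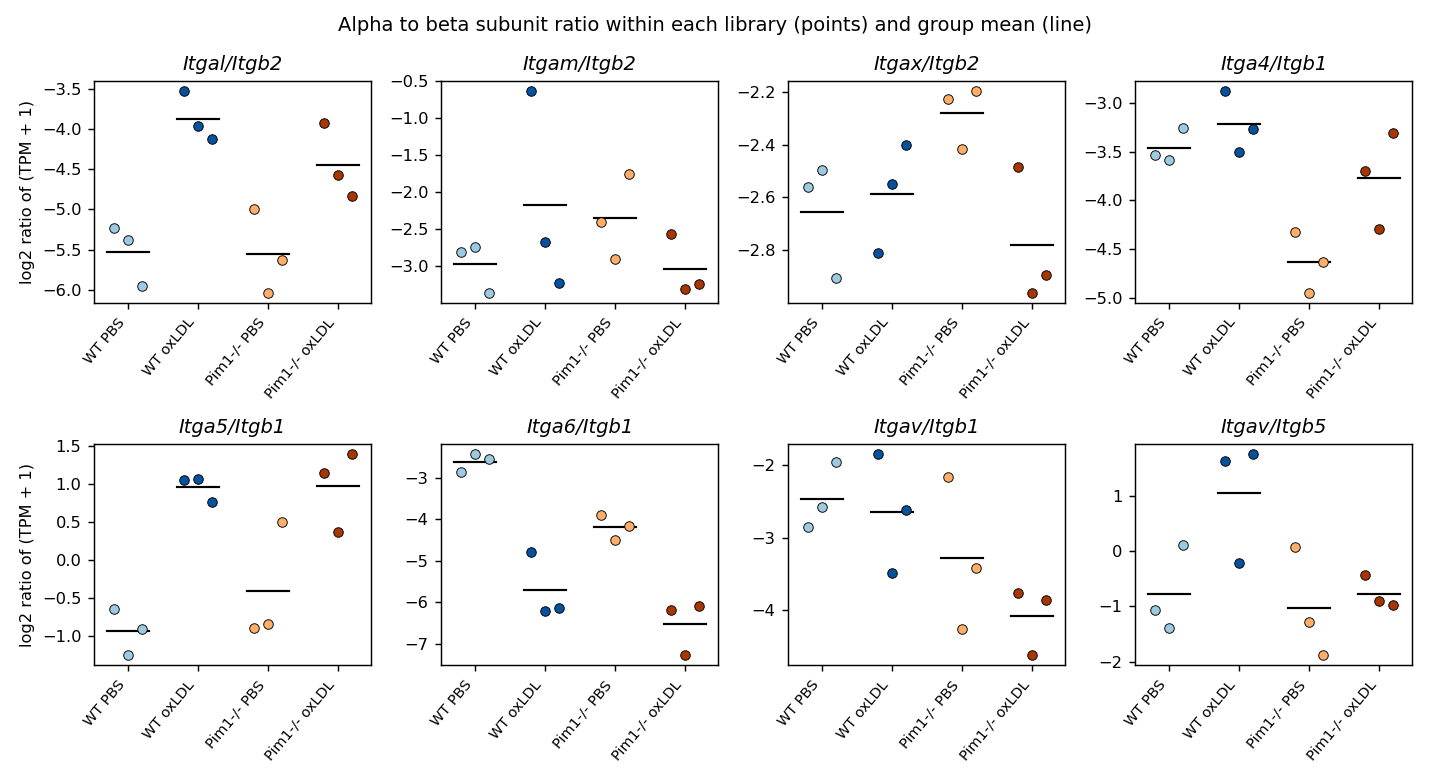
Log2 ratio of an alpha to a beta integrin transcript, (TPM + 1) over (TPM + 1), within each library (points) with the group mean (line) for 8 pairs known to form receptors. By group mean the Itgal to Itgb2 and Itga5 to Itgb1 ratios lie higher in oxLDL and the Itga6 to Itgb1 ratio lower. Itga5 to Itgb1 overlaps between treatments in Pim1-/- cells, and Itga4 to Itgb1 lies lowest in Pim1-/- PBS.

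The loss of Pim1 in untreated cells was examined next. Every one of the 10 integrin transcripts had a mean change below 0, as had 65.8% of all genes, and 2 passed, Itga6 and Itga4 (limma adjusted p under 0.05), where 4.06% of all genes were lower and 0.611% higher, 4.67% in all. The median change was -1.31 against -0.41 over all tested genes. No member passed after median scaling, where 0.0318% of all genes were lower and 0.0238% higher. The direction of Itga5 flipped to 0.39 after median scaling, and the other 9 stayed below 0. The knockout libraries lay wholly below WT in 7 of 10 genes (21.1% of all genes), and in 6 of 10 after median scaling (13.1%). In none of the 10 did they lie wholly above, as 6.62% of all genes did.

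The members are long transcripts, 2970 to 9767 bases in GENCODE M21, and gene length moved with the knockout. The 6433 tested genes in that range of lengths had a median change of -0.64 in PBS, and 80.7% of them lay below 0, while the 5389 shorter genes had a median of 0.07. With the length and GC trend taken out, the median of the 10 genes was -0.67, none passed, and 8 stayed below 0 against 49.3% of all genes. Macrophage markers moved both ways with the knockout. Csf1r went from 726, 777 and 494 TPM to 155, 402 and 222 TPM, and Adgre1 and Mertk also had lower means, with Mertk touching the WT range. Cd68 went the other way, from 1217, 967 and 2128 TPM to 3733, 2578 and 2550 TPM, while Lyz2 and Fcgr1 overlapped. The 6 macrophage markers, mostly Lyz2, summed to 11719 to 24087 TPM in WT PBS and 12712 to 23735 TPM in Pim1-/- PBS, ranges that overlapped. Gata6 of large peritoneal macrophages went from 11.0, 21.9 and 11.4 TPM to 3.97, 1.35 and 1.32 TPM. The 6 markers of that subset summed to 41.5 to 74.3 TPM and 21.2 to 38.6 TPM, with Icam2 making up 27.8 of the 41.5 TPM in WT PBS 3. The 5 fibroblast markers summed to 301 to 675 TPM and 656 to 1935 TPM. The part of these differences in the integrin values was not tested.

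Itga4, the alpha chain of the receptor for VCAM-1, stood at 27.2, 36.6 and 24.8 TPM in WT PBS and at 8.95, 11.8 and 3.77 TPM in Pim1-/- PBS. The groups did not overlap. The log2 change was -1.83 (SE 0.456, limma adjusted p = 0.0383), and -1.34 after median scaling (limma adjusted p = 0.0786). Itga6 differed by -2.23 (SE 0.497, limma adjusted p = 0.0283), and by -1.73 after median scaling (limma adjusted p = 0.0765). Without Rn45s and Mir6236 in the scaling the limma adjusted p was 0.0581 for Itga4 and 0.0531 for Itga6. In the 12 fits that left out a library, Itga4 missed the threshold in 7 and Itga6 in 4. Neither passed without WT PBS 1, WT PBS 2, Pim1-/- PBS 1 or Pim1-/- PBS 3. With WT oxLDL 2 and Pim1-/- oxLDL 1 left out, Itga6 passed (limma adjusted p = 0.0314) and Itga4 did not (limma adjusted p = 0.0524). Without WT PBS 3, the library with lymphocyte transcripts, 4 members passed, as also without Pim1-/- PBS 2. The other 8 members lay between -0.13 (Itga5) and -1.47 (Itgav), with Itgal at -1.42 (SE 0.407, limma adjusted p = 0.0605) nearest to the threshold.

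Under oxLDL all 10 transcripts again had a mean change below 0 in Pim1-/- against WT cells, as had 64.3% of all genes and 79.4% of those in the members' length range, and none passed. Over all 12594 genes 1 was called, a higher one (0.00794%), and 5 of the 10 integrin genes had an unadjusted limma p under 0.05, all lower, as had 1367 of all genes in either direction. The median change was -0.90 against -0.16 over all tested genes, and -0.49 once length and GC content were adjusted for. The knockout libraries were wholly lower for Itga4, Itga6, Itgal, Itgam and Itgav, with 13% of all genes lower in this way and 9.91% after median scaling, where the same 5 integrin genes were lower. None of the 10 was wholly higher, against 6.88% of all genes and 9.96% after median scaling. Itgav had the largest difference, from 47.3, 16.8 and 71.5 TPM in WT oxLDL to 12.5, 7.79 and 6.90 TPM in Pim1-/- oxLDL. The gap between WT oxLDL 2 and Pim1-/- oxLDL 1, the 2 libraries that correlated most closely, was the smallest. The change was -2.02 (SE 0.566, limma adjusted p = 0.36), and -1.90 after median scaling (limma adjusted p = 0.395). Without these 2 libraries it was -2.83 (SE 0.618, limma adjusted p = 0.0464), and 175 of all genes were then called. The pair was picked for its likeness across genotypes, so leaving it out tends to favour a genotype difference. Itgb5 hardly separated the genotypes under oxLDL, at -0.19 (SE 0.418, limma adjusted p = 0.954).

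The responses of the genotypes to oxLDL were then set against each other by the difference of the changes. No member passed, none had an unadjusted limma p under 0.05, and 1 of all genes was called (0.00794%), with 381 at an unadjusted p under 0.05. As deposited the largest differences were 1.03 (SE 0.591) for Itgb5, 0.88 (SE 0.688) for Itgb2 and 0.85 (SE 0.703) for Itga6, all toward a smaller fall in Pim1-/- cells, whose PBS levels were lower to begin with. After median scaling the largest were of the other sign, -0.96 (SE 0.713) for Itgam, -0.94 (SE 0.807) for Itgav and -0.81 (SE 0.438) for Itga5, and Itgb5 stood at 0.67.

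Within libraries Itga4 was lower relative to Itgb1 in Pim1-/- cells by 0.86 on the log2 scale. In PBS that ratio was -3.54, -3.59 and -3.26 for WT against -4.33, -4.95 and -4.63 for Pim1-/-, without overlap, and -2.88, -3.50 and -3.27 against -3.70, -4.29 and -3.31 under oxLDL, where the groups overlapped. The transcripts differ in length, 9767 bases for Itga4 and 3815 for Itgb1, so a length trend can enter this ratio. With the length and GC trend taken out, the knockout changes in PBS were -0.71 for Itga4 and 0.06 for Itgb1. In oxLDL they were -0.53 and -0.36. The ratio was not tested with that trend removed. As deposited, the difference over both treatments, -0.86, passed (exact permutation p = 0.01, adjusted 0.04 over 16 tests). Itga6 to Itgb1 at -1.19 (exact p = 0.025, adjusted 0.0667) and Itgav to Itgb1 at -1.13 (exact p = 0.035, adjusted 0.08) did not. The count of 1 went to 0 to 2 when a library was left out, to 0 without WT oxLDL 1, WT oxLDL 3, Pim1-/- PBS 2, Pim1-/- oxLDL 1 or Pim1-/- oxLDL 2 and to 2 without WT oxLDL 2 or Pim1-/- PBS 1. It was 0 without WT oxLDL 2 and Pim1-/- oxLDL 1 together, where fewer arrangements raise the smallest p the test can give.

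Of the 17 other integrin subunits 7 were tested, and in both genotypes 1 rose with oxLDL, Itgb8, and 1 fell, Itgb3. Over all genes 5.83% rose and 27.0% fell in WT cells, and 4.45% and 7.80% in Pim1-/- cells. Both encode beta partners of Itgav, that of Itgb8 being known for activating latent TGF-beta. Itgb8 stood at 1.18, 1.85 and 0 TPM in WT PBS and at 17.4, 20.9 and 37.7 TPM in WT oxLDL. In knockout cells it went from 0.583, 0.581 and 0.510 TPM to 17.1, 10.7 and 10.7 TPM. All oxLDL libraries were above all PBS libraries, and the log2 changes were 3.76 (SE 0.455, limma adjusted p = 5.32e-05) in WT and 3.12 (SE 0.455, limma adjusted p = 0.000419) in Pim1-/- cells. Itgb3 went from 18.7, 23.2 and 8.36 TPM to 0.683, 3.46 and 1.86 TPM in WT and from 33.6, 43.1 and 31.6 TPM to 4.14, 3.62 and 2.41 TPM in Pim1-/- cells. It was lower in every oxLDL library, by -2.57 (SE 0.464, limma adjusted p = 0.00125) and -3.09 (SE 0.464, limma adjusted p = 0.000521). All 4 calls held after median scaling. In PBS Itgb3 was higher in every Pim1-/- library than in every WT library, at 1.16 (SE 0.464, limma adjusted p = 0.129). This did not pass after median scaling (1.66, limma adjusted p = 0.0655) or in any of 12 fits without a library, and passed after quantile normalization (1.73, limma adjusted p = 0.0356) and with the length and GC trend taken out (limma adjusted p = 0.0312). Itgb3 is also a platelet integrin, and the 5 platelet markers, mostly Pf4, summed to 12.4 to 75.0 TPM in WT PBS and 21.2 to 108 TPM in Pim1-/- PBS, with Ppbp at 0 in all 12 libraries. Itgb7, a leukocyte beta chain that pairs with Itga4, was abundant at 153 ± 16.3 TPM in WT PBS and was called in no comparison.

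The beta chains available to Itgav other than Itgb1 can be read as shares of their summed TPM, a description chosen after the values were seen. Itgb5 held 86.2% ± 3.23 in WT PBS, and 41.2% ± 6.16 in WT oxLDL, where Itgb8 held 54.4% ± 7.78 (SD, n = 3). In Pim1-/- PBS cells Itgb5 held 54.3% ± 1.31 and Itgb3 44.9% ± 1.40, against 13.1% ± 3.00 for Itgb3 in WT PBS. In Pim1-/- oxLDL cells Itgb5 held 49.7% ± 4.31, Itgb8 39.7% ± 4.32 and Itgb3 10.6% ± 1.74. Itgb8 was at or below 1.03% in all 6 PBS libraries and at or above 36.0% in all 6 oxLDL libraries.

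**Figure D4:**
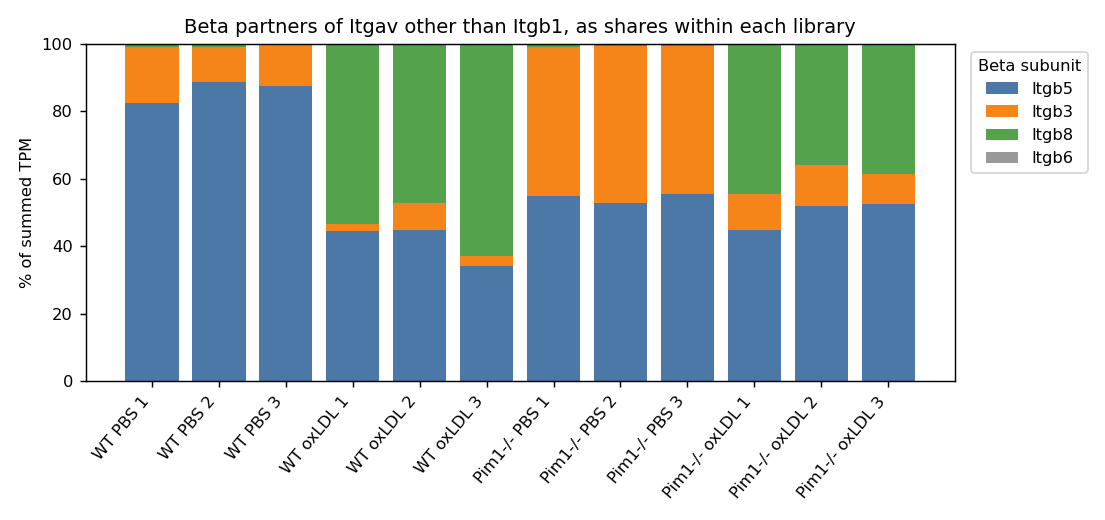
Share of each beta chain among the summed TPM of Itgb3, Itgb5, Itgb6 and Itgb8, the partners of Itgav other than Itgb1, per library and group. Itgb5 leads in WT PBS at 86.2%, shares with Itgb3 in Pim1-/- PBS (54.3% and 44.9%) and with Itgb8 after oxLDL (41.2% and 54.4% in WT).

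Among genes for proteins that switch integrins on or link them to actin, oxLDL raised 1 of 24 tested and lowered 9 in WT cells, where 5.83% of all genes rose and 27.0% fell. In Pim1-/- cells 0 rose and 7 fell (4.45% and 7.80% of all genes). After median scaling 1 rose and 2 fell in each genotype, against 12.2% and 8.18% of all genes in WT and 6.91% and 4.39% in Pim1-/- cells. The median change of the list was -1.03 in WT and -0.69 in Pim1-/- cells, against -0.70 and -0.50 over all tested genes. Rassf5, the Rap1 effector that activates the leukocyte integrins, went from 46.7, 48.9 and 54.5 TPM to 2.82, 3.28 and 5.78 TPM in WT cells. It was lower in every oxLDL library, by -3.41 (SE 0.404, limma adjusted p = 4.39e-05), and by -2.03 in Pim1-/- cells (SE 0.404, limma adjusted p = 0.00452). Parvg, a parvin of leukocytes, changed by -2.14 in WT (limma adjusted p = 0.00225) and Lims2, a focal adhesion adaptor, by -2.08 in Pim1-/- cells (limma adjusted p = 0.00838). Zyx, which encodes the focal adhesion protein zyxin, rose by 1.35 in WT cells (SE 0.413, limma adjusted p = 0.023), a call lost in 4 of 12 fits without a library. With the knockout in PBS Rap1b, a GTPase that activates integrins, and Actn1, which links them to actin, were the only 2 called. Both were lower, where 4.06% of all genes were called lower and 0.611% higher. In fits without 1 library Rap1b missed the threshold in 3 of 12 and Actn1 in 4. Rap1b stood at 834, 841 and 749 TPM in WT PBS and at 176, 166 and 32.9 TPM in Pim1-/- PBS (-3.01, SE 0.622, limma adjusted p = 0.0233). Neither passed after median scaling, with Rap1b at -2.49 (limma adjusted p = 0.0691) and Actn1 at -1.89 (limma adjusted p = 0.074), from -2.41 as deposited (SE 0.506, limma adjusted p = 0.0239).

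Integrin signalling kinases and scaffolds moved both ways. Among the 16 tested, 3 rose and 2 fell in WT and 2 and 2 in Pim1-/- cells with oxLDL (5.83% and 27.0%, and 4.45% and 7.80%, of all genes). After median scaling 5 rose and 1 fell in WT and 4 and 2 in Pim1-/- cells (12.2% and 8.18%, and 6.91% and 4.39%, of all genes). Src, a kinase downstream of integrins, went from 22.8, 29.0 and 16.2 TPM to 161, 82.8 and 146 TPM in WT cells (2.45, SE 0.456, limma adjusted p = 0.00155). Lcp2, the adaptor SLP-76, rose by 1.97 in WT and 1.93 in Pim1-/- cells (limma adjusted p = 0.00123 and 0.0026). Tns1, which encodes tensin and binds beta chain tails, fell from 33.2, 32.0 and 27.9 TPM to 0.950, 2.87 and 1.84 TPM in WT (-3.52, SE 0.413, limma adjusted p = 4.14e-05) and changed by -3.34 in Pim1-/- cells (limma adjusted p = 9.98e-05). Plcg2, a phospholipase, changed by -1.65 and -1.50 (limma adjusted p = 0.00468 and 0.0161), and did not pass in WT cells after median scaling. In Pim1-/- cells it missed the threshold in 3 of 12 fits without a library. None of this list was called with the knockout.

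With oxLDL 3 of 20 tested ligands and counter-receptors rose in WT cells and 1 fell, while 2 rose and 0 fell in Pim1-/- cells (5.83% and 27.0% of all genes in WT, 4.45% and 7.80% in Pim1-/-). After median scaling 4 rose in WT and 2 in Pim1-/- cells, and 0 fell in either. On that scale 12.2% of all genes rose and 8.18% fell in WT, and 6.91% and 4.39% in Pim1-/- cells. Icam1, the counter-receptor of Itgal and Itgam, went from 51.3, 51.5 and 31.1 TPM to 592, 632 and 1442 TPM in WT cells and from 26.8, 62.1 and 42.7 TPM to 525, 491 and 520 TPM in Pim1-/- cells. No library overlapped between treatments, and the changes were 4.20 (SE 0.436, limma adjusted p = 1.51e-05) and 3.59 (SE 0.436, limma adjusted p = 8.35e-05). Vcam1, the counter-receptor of Itga4, rose by 4.70 (SE 0.593, limma adjusted p = 7.22e-05) from 0.917, 3.89 and 0 TPM to 35.7, 42.0 and 103 TPM, and by 2.91 in Pim1-/- cells (SE 0.593, limma adjusted p = 0.00521). Mfge8, a bridge between dying cells and Itgav integrins, changed by -1.49 in WT (SE 0.463, limma adjusted p = 0.0245). It did not pass after median scaling or in 3 of 12 fits without a library. With the knockout in PBS Tgfb1 was the only call of the list, at -2.17 (SE 0.543, limma adjusted p = 0.0386), and was not called after median scaling. That call was lost in 7 of 12 fits without a library, and 4.06% of all genes were called lower. Of 12 tetraspanins and membrane partners, Plaur, the urokinase receptor that binds integrins, was the only call as deposited, rising by 1.36 in WT and 1.34 in Pim1-/- cells (limma adjusted p = 0.0172 and 0.0375). Its call was lost in 3 of 12 fits without a library in WT and in 6 in Pim1-/- cells. After median scaling 3 of the 12 rose in WT (12.2% of all genes) and 2 in Pim1-/- cells (6.91%). In oxLDL the knockout gave no call in these lists. At an unadjusted limma p under 0.05, 3 of 24 in the activation list, 4 of 16 in the kinase list and 1 of 20 in the ligand list were lower. Of the 12 tetraspanins and partners 1 was higher. Over all 12594 genes 1367 were under that limit in either direction.

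The genes whose profile over the 12 libraries was most like that of a member were found by the root mean square difference of centred log2(TPM + 1), among 9097 genes with a mean of at least 5 TPM. Nadk (0.12) and Galns (0.16) were closest to Itgb2, Dennd1b (0.15) and Kat2b (0.20) to Itga4, and Mtmr9 (0.17) and Kdm2a (0.32) to Itgam. Dbnl (0.21) was close to Itga5, and Nckap1l (0.18) and Atp2c1 (0.19) were closest to Itgax, and Cggbp1 (0.20) and Gars (0.22) to Itgb1. Rassf8 (0.24) and Mbnl1 (0.37) were closest to Itga6, Sec24b (0.27) and Rnf139 (0.28) to Itgal, Plekhm1 (0.28) and Nbr1 (0.28) to Itgb5, and Tmem248 (0.34) and Pkn2 (0.36) to Itgav. For comparison, the median distance of all candidates ran from 0.78 (Itgax) to 1.60 (Itga6) over the members. No member was among the 2 closest genes of another member.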

How the data were processed

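The deposited table holds TPM per gene for 12 libraries, a length-corrected abundance that the authors computed and scaled to 1 total in every library. The submitters' processing notes name Salmon, DESeq2 and the build mm10, with no versions or roles, and the annotation is not given in the sources used here. No counts were used, so depth is unknown and no interval for counting error is given. Genes with at least 1 TPM in at least 3 libraries were tested (12594 of 24279) on log2(TPM + 1), a pseudocount that understates changes of low genes. Limma 3.58.1 (R 4.3.3) was fitted with 4 group means over all 12 libraries (8 residual degrees of freedom) and an intensity trend. P-values were adjusted by Benjamini-Hochberg over all tested genes, with a threshold of 0.05. Ratios of partner chains were tested by exact permutation in Python 3.11.15 with numpy 2.4.6. Libraries were grouped by their labels. The members and the gene lists were chosen with earlier results of these data known. From each other list the text names up to 2 called genes per direction and comparison with the smallest p, and Itgad was named after its values were seen. Some genes that the rule would name are not reported here. The fit was tested on simulated data. Alternatives covered scaling, filter, pseudocount, trend, replicate block, left-out libraries and, added after seeing the data, removal of a length and GC trend.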

Additional observations from a re-analysis of the deposited data

How the results depend on the processing

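Of the 50 member results (10 genes in 5 comparisons), all kept direction and side of the threshold with a filter of 5 TPM or without the intensity trend. Over the 12 fits that left out 1 library, 553 of 600 did, 28 lost the call, 8 gained it and 11 turned. The number of members that rose with oxLDL in WT cells was 1 as reported, 2 after median scaling and 3 once a trend on length and GC content was removed. In Pim1-/- cells it was 0, 2 and 3. Members that fell in Pim1-/- oxLDL cells went from 2 to 1 with no filter, median scaling, quantile normalization, the replicate block, the most similar pair of libraries left out, or the trend removed. Members lower with the knockout in PBS went from 2 to 0 with a pseudocount of 0.1, no filter, median scaling, rescaling without Rn45s and Mir6236, the compared groups alone or the trend removed, and to 1 with the block or the pair left out. In oxLDL the count went from 0 to 1 with the pair left out, a pair picked for its likeness across genotypes. Ratios passing with oxLDL went from 3 to 0 with the pair left out, and with the knockout from 1 to 2 with a pseudocount of 0.1 and to 0 with the pair left out. Leaving out the pair also leaves fewer arrangements and raises the smallest p the exact test can give. A count of 0 there cannot tell a smaller difference from a weaker test. Leaving out 1 library gave 1 to 1 higher and 2 to 4 lower members for oxLDL in WT, 1 to 2 lower in Pim1-/-, 0 to 4 lower with the knockout in PBS and 0 to 1 in oxLDL, and 0 to 4 and 0 to 2 ratios. Directions turned for these results, and the cause was not tested. After median scaling these were Itga4 0.74, Itgam 0.39, Itgav 0.32 and Itgb1 0.52 (oxLDL, WT), Itgb1 0.23 and Itgb2 0.13 (oxLDL, Pim1-/-), Itga5 0.39 (knockout, PBS), and Itgal -0.027, Itgax -0.052 and Itgb1 -0.29 (difference of responses). After quantile normalization they were Itga4 0.54 (WT), Itga5 0.12 (knockout, PBS) and Itgb1 -0.14 (difference). Rescaling without Rn45s and Mir6236 gave Itga5 0.022 (knockout, PBS) and Itgb1 -0.18 (difference). The pair left out gave Itga4 0.13 (WT), Itgal -0.13 and Itgb1 -0.15 (difference). The trend removed gave Itga4 1.19, Itgam 0.57, Itgav 0.53 and Itgb1 0.51 (WT), Itgb1 0.090 and Itgb2 0.038 (Pim1-/-), Itga5 0.39 and Itgb1 0.063 (knockout, PBS), Itgb5 0.0084 (knockout, oxLDL), Itgax -0.017 and Itgb1 -0.42 (difference). With 1 library left out, ranges crossed 0 for Itga4 (-0.56 to 0.13) and Itgal (-0.0017 to 0.54) in WT oxLDL, Itgb1 in Pim1-/- oxLDL (-0.76 to 0.12), Itga5 with the knockout in PBS (-0.37 to 0.15), the differences of Itgax (-0.090 to 0.86) and Itgb1 (-0.34 to 0.53), and the Itgam to Itgb2 ratio with oxLDL (-0.34 to 0.31) and with the knockout (-0.39 to 0.26). Over all genes the counts called were 4137 for oxLDL in WT (2569 median scaled, 2658 quantile, 2104 pair left out, 2606 to 5067 by library), 1542 in Pim1-/- (687 to 2310 by library), 588 for the knockout in PBS (198 pseudocount 0.1, 151 no filter, 7 median scaled, 223 rescaled, 46 compared groups, 314 trend removed, 2 to 1708 by library) and 1 in oxLDL (175 pair left out, 0 to 323 by library). Deviations of same-numbered libraries from their group means had correlations of -0.287 to 0.165. Differently numbered libraries were not compared, so this cannot tell whether the numbers pair libraries. With the replicate block the knockout in PBS called 321 genes, and Itgb2 in WT oxLDL had a limma adjusted p of 0.0752. The compared groups alone gave no value for the difference of responses.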
